A study of Mus musculus with 6 samples.

Results

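Carriers of amino acids from the solute carrier families Slc1, Slc3, Slc6, Slc7, Slc36, Slc38 and Slc43 were compared between mammary glands of control and metformin mice. The members were all genes of the count table whose symbol carries one of these family names followed by a number. This gave 64 of 25160 features, with 7 in Slc1, 2 in Slc3, 21 in Slc6, 16 in Slc7, 4 in Slc36, 11 in Slc38 and 3 in Slc43. One of them, Slc7a6os, is named for its place opposite Slc7a6 and is not a carrier. Slc3a1 and Slc3a2 are heavy chains that bind carriers. Not all of the others carry amino acids, since Slc6a2 carries noradrenaline, Slc6a4 serotonin, Slc6a8 creatine and Slc43a3 purine bases. Both groups were wild-type (WT) female FVB/N mice, an inbred strain, and each group had 3 libraries of 1 mouse each. Controls received saline by intraperitoneal injection, and the other mice received metformin at 200 mg/kg each day by the same route between 8 and 18 weeks of age. RNA with a poly(A) tail was sequenced from the fourth mammary glands without their lymph nodes, so each library mixes epithelium, fat, vessels, nerves, muscle and immune cells. Values per mouse are given in the order of mice 1, 2 and 3 of each group.

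Cells take up amino acids through membrane carriers that differ in the amino acids they accept and in the ions that drive them. The Slc1 and Slc38 families move neutral or acidic amino acids with sodium, and the Slc36 family uses protons. The light chains of the Slc7 family exchange amino acids across the membrane and reach the cell surface when bound to an Slc3 heavy chain. The secretory epithelium of the mammary gland draws on such carriers for milk protein synthesis, and a lack of amino acids raises the transcription of several of them through the factor ATF4.

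The promoter windows below are a choice among genes that carry the results or hold the core of the element that ATF4 binds. The windows of Slc7a7, which hold matches, and another window of Slc43a2, without a match, are not shown. No window of Slc6a2 is shown either. Each runs from 250 bases before to 50 bases after a RefSeq start of the gene on GRCm38.p6, 5′ to 3′ on the strand of the gene, and capitals mark matches to the motif TGATGNAA on either strand. The windows are chr11:20332664-20332963 (minus strand) for Slc1a4, chr3:50443564-50443863 (minus strand) for Slc7a11, chr11:75531444-75531743 (plus strand) for Slc43a2 and chr15:96699679-96699978 (minus strand) for Slc38a2.
Slc1a4: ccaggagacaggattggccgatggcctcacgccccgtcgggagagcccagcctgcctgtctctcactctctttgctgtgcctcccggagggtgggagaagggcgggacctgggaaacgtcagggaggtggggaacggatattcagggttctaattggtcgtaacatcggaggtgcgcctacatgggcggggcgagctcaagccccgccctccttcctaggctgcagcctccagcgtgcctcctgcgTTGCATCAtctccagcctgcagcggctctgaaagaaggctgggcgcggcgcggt
Slc7a11: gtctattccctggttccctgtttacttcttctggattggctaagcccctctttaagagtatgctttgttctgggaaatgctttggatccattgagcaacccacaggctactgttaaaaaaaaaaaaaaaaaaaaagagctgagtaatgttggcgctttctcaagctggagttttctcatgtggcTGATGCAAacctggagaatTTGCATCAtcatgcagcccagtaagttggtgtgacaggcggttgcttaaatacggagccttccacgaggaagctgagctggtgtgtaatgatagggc
Slc43a2: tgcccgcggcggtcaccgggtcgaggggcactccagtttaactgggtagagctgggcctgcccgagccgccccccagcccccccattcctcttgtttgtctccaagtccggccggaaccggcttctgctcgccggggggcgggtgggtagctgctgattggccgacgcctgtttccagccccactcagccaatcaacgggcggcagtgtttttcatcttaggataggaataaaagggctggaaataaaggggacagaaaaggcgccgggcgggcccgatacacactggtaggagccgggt
Slc38a2: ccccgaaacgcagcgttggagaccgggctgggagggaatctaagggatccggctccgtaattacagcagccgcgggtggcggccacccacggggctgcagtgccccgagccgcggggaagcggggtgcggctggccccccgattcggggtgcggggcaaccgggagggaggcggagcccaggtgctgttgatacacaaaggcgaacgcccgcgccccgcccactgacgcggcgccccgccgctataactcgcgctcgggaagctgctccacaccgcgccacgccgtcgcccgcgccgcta
RefSeq windows were found for 46 of the 64 members. The motif was in 3.97% of all 32851 windows and for 4.51% of all 27025 genes with a window. Among 28 tested members with a window it was found for 3, or 10.7%, which are Slc1a4, Slc7a11 and Slc7a7. The Slc1a4 match began 4 bases before the start and lay on the opposite strand. Slc7a11 held 2 matches, which began 66 and 47 bases before the start, on opposite strands and without overlap. A match describes letters only, and its absence says only that these letters are not in the window.

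Counts per gene totalled between 35375365 and 47370885 per library, and 42 of the 64 members passed the filter for low counts and were tested together with all other features, 15925 in all. Control 3 stood apart from controls 1 and 2, with a mean correlation over genes of 0.948 with them and of 0.962 with the metformin libraries. Levels are given as CPM, the count scaled to library size by TMM. The 10 alveolar milk genes summed to 31660.4, 29365 and 1409 CPM in the controls and 1125, 1243 and 1633 CPM under metformin. The 10 epithelial markers summed to 981, 1836 and 956 CPM in the controls and 1025, 661 and 809.9 CPM under metformin, and the 8 adipocyte markers to 17844, 18197 and 28975 CPM in the controls and 28788, 28427 and 21557 CPM under metformin. Control 3 thus lay with the metformin mice for the milk genes, and results are given with and without it. In the other marker lists the median log2 fold change, metformin over control, was -0.49 for basal, -0.06 for luminal hormone-sensing, 0.20 for fibroblast, 0.07 for macrophage, -0.02 for endothelial, 0.27 for skeletal muscle, -0.24 for T and B cells and 0.91 for red blood cell. Without control 3 these medians were -0.55 for basal, 0.57 for luminal hormone-sensing, 0.65 for fibroblast, 0.32 for macrophage, 0.16 for endothelial, 0.29 for skeletal muscle, -0.61 for T and B cells and 0.73 for red blood cell. In whole tissue, fewer cells of a type and less RNA per cell cannot be told apart.

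**Figure D1:**
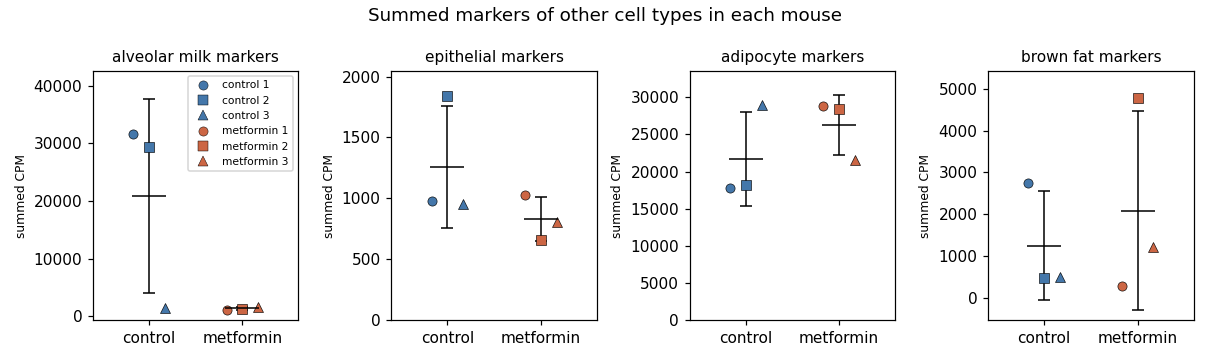
Summed CPM (vertical axis, linear) of the alveolar milk, epithelial, adipocyte and brown fat marker lists in each of the 6 mice, with bars at the group mean and 1 SD (n = 3). The milk genes of controls 1 and 2, at 31660.4 and 29365, stand above control 3 and all metformin mice.

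The gland expressed a small set of these carriers at high level. On the FPKM scale, which is divided by transcript length and so allows comparison between genes, 2 members had a mean over 100, 11 a mean over 10 (these included), 21 lay between 1 and 10 and 32 lay under 1. The highest was Slc1a5, a sodium-dependent exchanger of glutamine and other small neutral amino acids, with a mean of 278 FPKM over the 6 mice. Slc36a2, a proton-coupled carrier of glycine, alanine and proline that is known as a surface protein of fat cells, followed at 105 FPKM. The heavy chain Slc3a2 had 72.2 FPKM, and Slc7a10, a light chain for small neutral amino acids that is also known from white fat, had 49.7 FPKM. Slc38a10, a relative of the glutamine carriers, had 48.3 FPKM, Slc43a3, a carrier of purine bases, 43.5 FPKM, and Slc1a3, a glutamate carrier, 32.4 FPKM. Slc38a2, the sodium-coupled carrier of neutral amino acids that cells raise on amino acid shortage, had 29.1 FPKM, and Slc6a6, the taurine carrier, 22.8 FPKM. These 9 members held between 80.8% and 90.05% of the summed FPKM of the 64 members in each mouse.

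**Figure D2:**
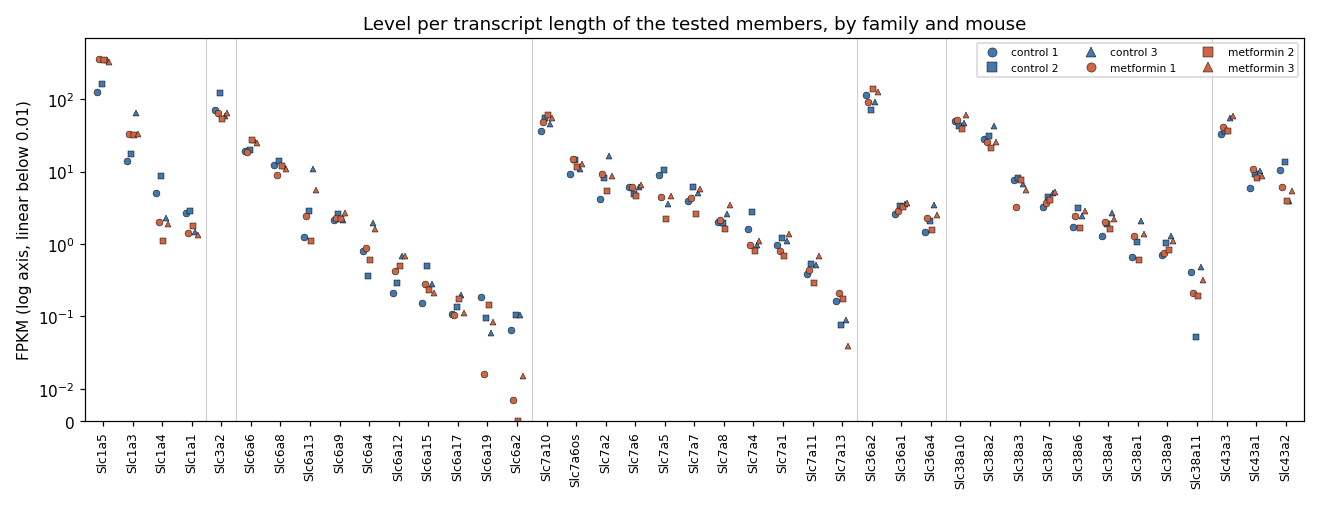
FPKM (vertical axis, logarithmic above 0.01 and linear below) of the tested members, 1 left out, in each of the 6 mice, grouped by family in the order Slc1, Slc3, Slc6, Slc7, Slc36, Slc38 and Slc43, with blue for control and orange for metformin. Slc1a5, at a mean of 278 FPKM, is the highest, and the Slc6 family reaches from 22.8 FPKM for Slc6a6 down to 0.0490 FPKM for Slc6a2.

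Of the 22 members that were not tested, 5 had no count in any mouse (Slc36a3, Slc6a11, Slc7a12, Slc7a14 and Slc7a9), and the largest count in 1 mouse was 50, for Slc6a20b in control 2. The others are Slc1a2, Slc1a6, Slc1a7, Slc3a1, Slc38a5, Slc38a8, Slc6a14, Slc6a16, Slc6a18, Slc6a20a, Slc6a20b, Slc6a21, Slc6a3, Slc6a5, Slc6a7, Slc7a15 and Slc7a3. Slc3a1, the heavy chain known from kidney and intestine, had 0, 0 and 0 counts in the controls and 7, 0 and 2 counts under metformin, and its light chain partner Slc7a9 had 0 in all 6 mice. Slc6a14, a carrier of neutral and basic amino acids, had 4, 34 and 4 counts in the controls and 0, 0 and 3 counts under metformin. A count of 0 in a library allows up to 3 counts, and at this depth such counts say little about a difference. The groups did not overlap in Slc1a2, Slc6a7, Slc6a14 and Slc7a15, all lower under metformin. The share of untested features without overlap was not computed, so this is not read as a result.

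To determine whether these carriers differed in expression after metformin, the groups were compared with the edgeR quasi-likelihood test. Slc1a4 and Slc6a2 fell at the thresholds of the study, which ask for a 1.5-fold difference and an unadjusted p under 0.01, and no member rose. This is 2 of 42 members, where 1.28% of all tested features were lower and 0.421% were higher. At an unadjusted p under 0.05, Slc38a2 joined them, which gave 3 lower members (4.85% of all features) and 0 higher members (2.68% of all features). At an adjusted p under 0.05, edgeR called 0 members (0% of all features), against 3 at an unadjusted p under 0.05. Under limma-voom 0 members reached it, and under DESeq2 there were 2, Slc1a4 and Slc6a2, where 1.26% of all features were called. In sign, 22 of 42 members were lower (48.7% of all features), and the median log2 fold change was -0.03 beside 0.01 over all features. The groups did not overlap in 2 tested members, Slc6a2 and Slc38a2, both lower, where 6.95% of all features were lower and 6.27% higher without overlap.

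By family, 4 members were tested in Slc1, 1 in Slc3, 11 in Slc6, 11 in Slc7, 3 in Slc36, 9 in Slc38 and 3 in Slc43. Median log2 fold changes were -0.17 in Slc1, -0.06 in Slc6, 0.04 in Slc7, 0.11 in Slc36, -0.13 in Slc38 and 0.22 in Slc43. Without control 3 they were 0.14, 0.16, 0.07, 0.26, 0.09 and 0.32 in the same order, so the signs of Slc1, Slc6 and Slc38 turned. Summed over its members, the Slc1 family had 500.3, 577 and 1210.1 CPM in the controls and 1254, 1349 and 1068 CPM under metformin, of which Slc1a5 made up most. Without Slc1a5, the sum over all 64 members was 1745 ± 77.8 CPM in controls and 1772 ± 92.6 CPM under metformin (SD, n = 3), a difference smaller than the spread between mice. The summed CPM of the Slc6, Slc7, Slc36, Slc38 and Slc43 families also overlapped between the groups.

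**Figure D3:**
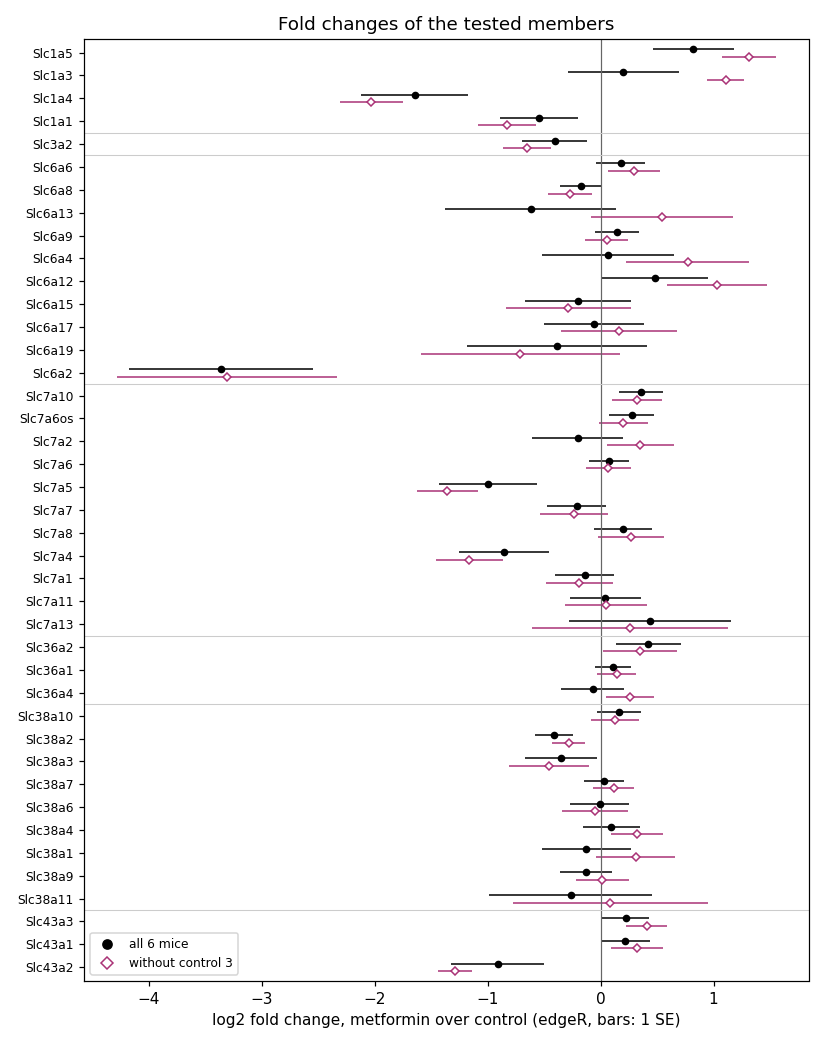
Log2 fold change, metformin over control, of the tested members, 1 left out (horizontal axis) with 1 SE, by family from Slc1 at the top to Slc43 at the bottom. Filled circles use all 6 mice and open diamonds leave out control 3: Slc1a3 moves from 0.20 to 1.11 and Slc6a13 from -0.62 to 0.54, while Slc6a2 is at -3.36 and -3.31.

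Slc1a4 encodes ASCT1, an exchanger of alanine, serine and cysteine, and lies on chromosome 11 from 20302180 to 20332713 (GRCm38, minus strand). Its level was 23.0, 35.1 and 8.67 CPM in the controls and 8.71, 5.19 and 7.41 CPM under metformin. Controls 1 and 2 were the highest mice and control 3 lay inside the metformin range, so the groups overlapped. The log2 fold change was -1.65 (SE 0.47), with an edgeR unadjusted p of 0.00897 and an adjusted p of 0.541. Without control 3 it was -2.03 (SE 0.28), with an adjusted p of 0.0475, and against control 3 alone it was -0.29 (SE 0.37). When any other mouse was left out, Slc1a4 missed the thresholds, at log2 fold changes from -1.84 to -1.15. The milk genes were likewise high in controls 1 and 2 alone, and their part in the result was not tested.

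The related exchanger Slc1a5, or ASCT2, had a fold change of the opposite sign that did not pass with all mice. It lies on chromosome 7 from 16781340 to 16798274 (GRCm38, plus strand), and its level was 399, 455 and 939.9 CPM in the controls and 1087, 1172 and 914 CPM under metformin. Controls 1 and 2 were the lowest mice and control 3 lay inside the metformin range. Its log2 fold change of 0.82 (SE 0.36) did not pass (edgeR unadjusted p of 0.0531). Without control 3 it was 1.31 (SE 0.24) and passed the thresholds, with an adjusted p of 0.1001, and against control 3 alone it was 0.17 (SE 0.32). The adipocyte and fibroblast markers were likewise lowest in controls 1 and 2, and their part was not tested. The fibroblast markers summed to 1946, 1907 and 4091 CPM in the controls and 3474, 2013 and 4041 CPM under metformin. On the FPKM scale the ratio of Slc1a5 to Slc1a4 was 24.5, 18.3 and 153 in the controls and 177, 319 and 173 under metformin. This ratio was chosen after the values were seen and is given without a test.

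Slc1a3, the glutamate carrier GLAST, had 66.3, 75.1 and 256 CPM in the controls and 153, 163 and 141 CPM under metformin. Control 3 was above all metformin mice, and controls 1 and 2 were below them all. The log2 fold change was 0.20 (SE 0.49) with all mice, 1.11 (SE 0.16) without control 3 (edgeR adjusted p of 0.0545) and -0.75 (SE 0.22) against control 3 alone, so its direction rested on the choice of control mice. Slc1a1, another glutamate carrier, had 11.7, 11.3 and 5.35 CPM in the controls and 6.02, 8.25 and 5.13 CPM under metformin, a log2 fold change of -0.55 (SE 0.35). Of the exonic bases of Slc1a1, 2631 of 8257 are shared with a gene on the opposite strand, so its value is uncertain.

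**Figure D4:**
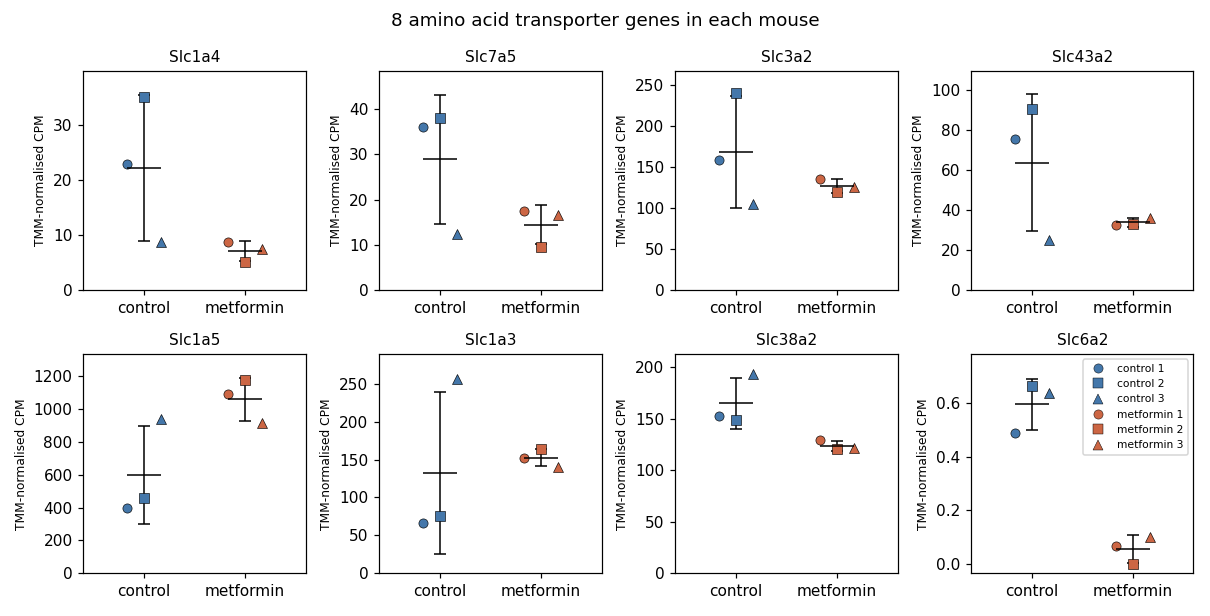
TMM-normalised CPM (vertical axes, linear) of 8 members in each mouse, with bars at the group mean and 1 SD (n = 3). Control 3 (blue triangle) sits inside the metformin range for Slc1a4, Slc1a5 and Slc7a5, above it for Slc1a3, Slc38a2 and Slc6a2, and below it for Slc3a2 and Slc43a2.

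The heavy chain Slc3a2, which carries most light chains to the surface, had 159, 241 and 105 CPM in the controls and 136, 119 and 126 CPM under metformin. Control 3 was the lowest of the 6 mice and control 2 the highest. The log2 fold change was -0.41 (SE 0.29) with all mice, -0.65 (SE 0.21) without control 3, -0.06 without control 2 and 0.27 (SE 0.21) against control 3 alone. Slc7a5, or LAT1, the light chain for leucine and other large neutral amino acids, had 36.1, 38.1 and 12.4 CPM in the controls and 17.5, 9.45 and 16.5 CPM under metformin. Control 3 again lay inside the metformin range. The log2 fold change of -0.996 (SE 0.43) did not pass (edgeR unadjusted p of 0.0516), was -1.36 (SE 0.27) and past the thresholds without control 3 (adjusted p of 0.122), and was 0.23 against control 3 alone.

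Slc7a10 was the most abundant light chain and held between 62.8% and 84.1% of the summed FPKM of the 6 light chains that pair with Slc3a2 (Slc7a5, Slc7a6, Slc7a7, Slc7a8, Slc7a10 and Slc7a11). Its level was 79.5, 107 and 85.5 CPM in the controls and 101.4, 141 and 106 CPM under metformin, a log2 fold change of 0.36 (SE 0.20) that did not pass. The groups overlapped through control 2, and 377 of 2111 exonic bases are shared with Lrp3 on the opposite strand. On the FPKM scale the ratio of Slc3a2 to the summed light chains was 1.24, 1.55 and 0.916 in the controls and 0.995, 0.733 and 0.860 under metformin. Controls 1 and 2 had the highest ratios, and control 3 lay inside the metformin range. Slc7a10 makes up most of the summed light chains, so the ratio mostly sets Slc3a2 against Slc7a10. The light chains without Slc7a10 summed to 21.3, 23.9 and 17.8 FPKM in the controls and 17.4, 11.4 and 21.1 FPKM under metformin. The groups overlapped in this sum, and the order of the ratios was not shown to hold without Slc7a10. The ratio was not among the planned results and is given without a test.

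The other light chains did not pass the test. Slc7a6, which exchanges basic for neutral amino acids, had 26.7, 18.6 and 22.2 CPM in the controls and 24.8, 21.3 and 24.8 CPM under metformin, and Slc7a7, of like function, had 9.24, 13.03 and 10.5 CPM in the controls and 9.84, 6.71 and 11.8 CPM under metformin. Their log2 fold changes were 0.07 (SE 0.18) and -0.21 (SE 0.26). Slc7a8, a carrier of neutral amino acids of many sizes, had 9.60, 8.20 and 10.2 CPM in the controls and 9.67, 8.08 and 14.4 CPM under metformin, a log2 fold change of 0.20 (SE 0.26). Slc7a11, the cystine and glutamate exchanger whose promoter window is shown above, had 4.07, 5.07 and 4.59 CPM in the controls and 4.44, 3.27 and 6.46 CPM under metformin, a log2 fold change of 0.04 (SE 0.31), and all 3 controls lay inside the metformin range. Slc7a13, known from kidney, had 0.425, 0.180 and 0.195 CPM in the controls and 0.511, 0.457 and 0.1001 CPM under metformin, a log2 fold change of 0.44 (SE 0.72). Slc7a6os had 13.1, 18.3 and 13.3 CPM in the controls and 20.8, 17.5 and 15.9 CPM under metformin, a log2 fold change of 0.27 (SE 0.20).

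Of the carriers of basic amino acids in Slc7, which need no heavy chain, Slc7a2 had 37.8, 65.4 and 124 CPM in the controls and 79.1, 50.04 and 68.5 CPM under metformin. Its log2 fold change was -0.20 (SE 0.40) with all mice, 0.35 without control 3 and -0.91 against control 3 alone. Slc7a1, the widespread arginine and lysine carrier, was at 8.18 ± 0.717 CPM in controls and 7.43 ± 2.24 CPM under metformin (SD, n = 3). Slc7a4, a relative of these carriers, had 5.59, 8.98 and 3.08 CPM in the controls and 3.29, 3.17 and 3.303 CPM under metformin. Control 3 lay below the metformin range, and the log2 fold change of -0.86 (SE 0.39) did not pass with all mice, whereas it was -1.16 (SE 0.30) and past the thresholds without control 3 (edgeR unadjusted p of 0.00683). Of the exonic bases of Slc7a4, 554 of 4153 are shared with P2rx6 on the opposite strand, and opposite-strand overlaps of a smaller share touch Slc7a2, Slc7a7, Slc38a9, Slc38a10 and Slc6a6.

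In Slc43, a family of carriers that work without sodium, Slc43a2 (LAT4) lets branched-chain amino acids and phenylalanine pass. It had 75.5, 90.6 and 25.1 CPM in the controls and 32.4, 33.0 and 36.2 CPM under metformin, with control 3 the lowest of the 6 mice. Its log2 fold change was -0.91 (SE 0.41) with all mice (edgeR adjusted p of 0.681), -1.29 (SE 0.15) without control 3 (adjusted p of 0.0279) and 0.43 (SE 0.20) against control 3 alone. Of its exonic bases, 922 of 10042 are shared with a gene on the opposite strand. Slc43a1 (LAT3), of like function, had 18.7, 27.8 and 28.4 CPM in the controls and 34.0, 28.9 and 24.5 CPM under metformin, and Slc43a3 had 98.6, 95.2 and 137 CPM in the controls and 118, 115 and 153 CPM under metformin. Both overlapped between the groups, with log2 fold changes of 0.22 (SE 0.21) and 0.22 (SE 0.21). On the FPKM scale the ratio of Slc43a2 to Slc43a1 was 1.77, 1.45 and 0.389 in the controls and 0.553, 0.488 and 0.623 under metformin, also chosen after the values were seen.

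Without control 3, 4 members were lower past the thresholds (Slc1a4, Slc7a5, Slc7a4 and Slc43a2, where 3.19% of all features were) and 2 were higher (Slc1a3 and Slc1a5, where 0.872% were). Slc1a4 and Slc43a2 also had an edgeR adjusted p under 0.05, where 0.585% of 16406 features had one. Control 3 was singled out after its values were seen. The p-values without it, here and for single genes above, therefore cannot be taken at face value. Against control 3 alone, 0 members were past the thresholds (0.316% of all features were lower and 1.33% higher). In that fit edgeR gave 0 members an adjusted p under 0.05 (0% of all features) and 4 an unadjusted p under 0.05, all lower (3.43% of all features were lower and 6.46% higher at that p). It takes its spread from the metformin mice, and the single control is treated as varying to the same degree. Control 3 lay within the metformin range in 21 of the 42 members, above it in 13 and below it in 8. The share over all features was not computed, so these counts do not place control 3 with the metformin mice for these carriers.

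Slc38a2 and Slc6a2 separated the groups with all 3 controls on one side. Slc38a2, on chromosome 15 from 96687392 to 96699730 (GRCm38, minus strand), had 153, 148 and 193 CPM in the controls and 129.6, 121 and 122 CPM under metformin. Control 3 was the highest mouse. Metformin over control, the log2 fold change was -0.41 (SE 0.17), with an edgeR unadjusted p of 0.0421 and an adjusted p of 0.652, and it was under the 1.5-fold threshold. With any 1 mouse left out it ranged from -0.48 to -0.28, with unadjusted p from 0.0419 to 0.107, and against control 3 alone it was -0.64. Its promoter window, shown above, held no motif match.

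Slc6a2, the noradrenaline carrier of sympathetic neurons, lies on chromosome 8 from 92960079 to 93001667 (GRCm38, plus strand) and was near the lower end of what these libraries can measure. It had 16, 33 and 26 counts in the controls and 3, 0 and 4 counts under metformin, which is 0.486, 0.662 and 0.635 CPM in the controls and 0.0667, 0 and 0.1001 CPM under metformin. The groups did not overlap. The log2 fold change was -3.36 (SE 0.82), with an edgeR unadjusted p of 0.00375 and an adjusted p of 0.539. This value rests on few counts. With any 1 mouse left out it ranged from -4.01 to -2.80. Slc6a2 was past the thresholds without control 1, metformin 2 or metformin 3, and missed them without control 2 (-3.27), control 3 (-3.31) or metformin 1 (-3.53), at unadjusted p up to 0.0165. Of the genes of the Schwann cell list, which mark nerve, Mbp, a myelin gene, had 102, 56.2 and 99.9 CPM in the controls and 66.4, 63.9 and 95.0 CPM under metformin, a log2 fold change of -0.20 (-0.08 without control 3). Prx, which stabilizes peripheral myelin, had 18.9, 10.2 and 19.8 CPM in the controls and 12.8, 12.2 and 17.8 CPM under metformin, a log2 fold change of -0.20 (-0.03 without control 3). Sox10, a transcription factor that mammary epithelium also expresses, had 60.7, 112 and 18.6 CPM in the controls and 22.2, 18.4 and 24.4 CPM under metformin, a log2 fold change of -1.56 (unadjusted p = 0.0227; -1.99 without control 3). The groups overlapped in each of these genes, and no sum or count is given over the list, since not all of its genes are reported here. The part of nerve in the result was not tested.

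Most other members of Slc6, the family of sodium- and chloride-dependent carriers of neurotransmitters, osmolytes and amino acids, varied from mouse to mouse without separating the groups. Slc6a6, the taurine carrier, had 137, 126 and 164 CPM in the controls and 127, 203 and 153 CPM under metformin, a log2 fold change of 0.18 (SE 0.22). Slc6a8, the creatine carrier, had 48.2, 47.8 and 38.6 CPM in the controls and 33.3, 48.8 and 37.2 CPM under metformin, a log2 fold change of -0.17 (SE 0.19). Slc6a9, a glycine carrier, gave a log2 fold change of 0.14 (SE 0.19), with 1555 of 5141 exonic bases shared with genes on the opposite strand. In Slc6a13, a carrier of GABA and taurine, the spread within groups exceeded the difference between them, with 3.28, 6.60 and 23.4 CPM in the controls and 6.07, 2.96 and 12.6 CPM under metformin and a log2 fold change of -0.62 (SE 0.76). Slc6a4, the serotonin carrier, was at 2.96 ± 2.11 CPM in controls and 3.09 ± 1.27 CPM under metformin (SD, n = 3). Slc6a12, Slc6a15, Slc6a17 and Slc6a19 were below 2 CPM in every mouse, and 0 of them passed with all mice.

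The proton-coupled Slc36 carriers overlapped between the groups. Slc36a2 had 321, 179 and 212 CPM in the controls and 247, 403 and 305 CPM under metformin, a log2 fold change of 0.42 (SE 0.29). The 5 brown fat markers summed to 2747, 474 and 504 CPM in the controls and 271, 4777 and 1208 CPM under metformin. The same 3 mice, metformin 2, control 1 and metformin 3, were highest for Slc36a2 and for the brown fat markers. Those 3 mice were also highest for the skeletal muscle and red blood cell markers, so the match was not particular to brown fat. The skeletal muscle markers summed to 13868.5, 12711 and 13780 CPM in the controls and 11063, 22417 and 15904 CPM under metformin. For the red blood cell markers the sums were 2753, 1455 and 1209 CPM and 2167, 4103 and 4002 CPM. The part of these cell types was not tested. Without control 1 the log2 fold change of Slc36a2 was 0.71 (SE 0.28), past 1.5-fold but not past the p threshold. Slc36a1, a lysosomal carrier, had 15.5, 18.2 and 18.0 CPM in the controls and 16.6, 19.8 and 19.3 CPM under metformin, a log2 fold change of 0.11 (SE 0.16), and that of Slc36a4 was -0.07 (SE 0.28).

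In the Slc38 family of glutamine and alanine carriers, Slc38a2 alone of 9 tested members reached an unadjusted p under 0.05. Slc38a10 had 259, 197 and 209 CPM in the controls and 254, 214 and 277 CPM under metformin, a log2 fold change of 0.16 (SE 0.20), with the groups overlapping. Slc38a3, a glutamine carrier, had 21.2, 20.0 and 16.1 CPM in the controls and 8.76, 21.6 and 14.6 CPM under metformin, a log2 fold change of -0.35 (SE 0.32). Slc38a1, close to Slc38a2 in its substrates, differed by -0.13 (SE 0.39) on the log2 scale and was highest in control 3, at 14.0 CPM. Slc38a9, a lysosomal arginine sensor upstream of mTORC1, had one of -0.13 (SE 0.23). Those of Slc38a4, Slc38a6 and Slc38a7 were 0.10 (SE 0.25), -0.01 (SE 0.26) and 0.03 (SE 0.18). Slc38a11 was at or below 0.733 CPM in every mouse.

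Genes that make, break down or sense amino acids were compared beside the carriers. Of all features, 1.28% were lower and 0.421% higher past the thresholds. At an edgeR unadjusted p under 0.05, 4.85% were lower and 2.68% higher. With so few genes in each list, the counts below are not read as results about the lists. Of 32 tested genes of amino acid synthesis and breakdown, 0 were past the thresholds, while 2 were lower and 1 was higher at an unadjusted p under 0.05, and the median log2 fold change was 0.09. Ass1, argininosuccinate synthase, had 11.97, 15.1 and 7.16 CPM in the controls and 5.62, 3.39 and 7.18 CPM under metformin, a log2 fold change of -1.08 (SE 0.37) with an edgeR adjusted p of 0.604. Control 3 lay just inside the metformin range of Ass1. Aldh18a1, the first enzyme of proline synthesis, showed one of -0.90 (SE 0.38), Gpt, an alanine aminotransferase, one of 0.51 (SE 0.21), and Csad, an enzyme of taurine synthesis, one of 0.46 (SE 0.20).

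Of 16 genes of the amino acid stress response, 0 were past the thresholds (1.28% of all features were lower and 0.421% higher). At an edgeR unadjusted p under 0.05, 1, Trib3, was higher (2.68% of all features). The median log2 fold change was 0.10. Trib3, a pseudokinase induced by ATF4, had 5.99, 6.64 and 6.50 CPM in the controls and 16.8, 7.38 and 11.1 CPM under metformin, a log2 fold change of 0.88 (SE 0.31) with an edgeR adjusted p of 0.605, and the groups did not overlap. Eif2ak3, Gdf15 and Ddit4 were next by p, with log2 fold changes of -0.35 (SE 0.21), -1.50 (SE 0.93) and 0.64 (SE 0.41).

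Of 29 tested genes of amino acid sensing at mTORC1, 0 were past the thresholds (1.28% of all features were lower and 0.421% higher). At an edgeR unadjusted p under 0.05, 1 was lower (4.85% of all features) and 1 was higher (2.68% of all features). The median log2 fold change was 0.06. Sesn3, an inhibitor of mTORC1, had 43.5, 59.1 and 61.5 CPM in the controls and 37.4, 32.3 and 40.2 CPM under metformin, a log2 fold change of -0.58 (SE 0.18) with an edgeR adjusted p of 0.564, and the groups did not overlap. Nprl3, a subunit of the complex that holds mTORC1 inactive when amino acids are scarce, had one of 0.39 (SE 0.17), Castor1, an arginine sensor, one of 0.37 (SE 0.21), and Fnip1 one of -0.40 (SE 0.22). Of 13 tested genes among other amino acid carriers, mostly of mitochondria and lysosomes, 0 were past the thresholds. At an edgeR unadjusted p under 0.05, 1 was lower and 1 was higher, beside the same shares of all features. The median was 0.11. Slc25a29, Slc17a5, Slc25a22 and Slc25a13 had log2 fold changes of 0.49 (SE 0.19), -0.46 (SE 0.19), 0.60 (SE 0.33) and -0.55 (SE 0.40).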

How the data were processed

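RNA of whole glands from 3 control and 3 metformin mice was analysed. Reads were trimmed and mapped to the mouse genome (GRCm38) by the provider that sequenced them for the authors. HISAT2 and StringTie are named in the processing notes of the submitters, while versions, counting tool, annotation and strand setting were not given in the sources used here. Counts were deposited as whole numbers of reads per gene, without normalization by the authors. The deposited FPKM values, made by the authors from the same libraries, served for levels between genes and as an alternative.

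The counts were tested in edgeR 4.0.16 (R 4.3.3) after filterByExpr and TMM, with the quasi-likelihood F test and Benjamini-Hochberg adjustment over 15925 features. The SE was approximated from the log2 fold change and its F statistic. Alternatives were DESeq2 1.42.0, limma-voom with quality weights (limma 3.58.1), RLE normalization, no filter, at least 10 counts in every sample, a replicate block, log2 FPKM with pseudocounts of 1 and 0.1, and each mouse left out. A fit against control 3 alone was added after the values were seen. Tested on simulated data of the same comparison with 15925 genes, edgeR found 64% of genes changed 2-fold and 88% of those changed 4-fold at the thresholds, and called 161 of 15725 unchanged genes.

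Values per mouse were given for members with an unadjusted p under 0.05, the 2 of highest mean FPKM in each family, and the heavy chains and light chains of heteromeric carriers. Up to 4 genes of smallest p were named in each pathway list. Further members described with values, among them Slc1a1, Slc7a2, Slc7a4, Slc43a2, Slc6a13, Slc6a14 and Slc38a3, were chosen after their values were seen. The members and all lists were chosen with earlier results of these data known. Pycr3, Samtor and Slc66a1 were not found under these symbols and were not analysed here. Gene positions and exonic overlaps were taken from GENCODE vM21, and promoter windows from RefSeq (GRCm38.p6). One tested member and a pair of marker genes are not reported here by name, and the member remains in the counts and medians.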

Additional observations from a re-analysis of the deposited data

How the results depend on the processing

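The 2 lower members past the thresholds were also 2 in DESeq2, in limma-voom, with RLE normalization and without a filter. There was 1 with at least 10 counts in every sample, which left Slc6a2 untested. There were 0 with the replicate block, with log2(FPKM + 1) with and without a filter and with log2(FPKM + 0.1), and 0 to 4 with 1 mouse left out. At a control mean of 0.0907 FPKM, Slc6a2 could not reach 1.5-fold with a pseudocount of 1. Its log2 fold change there was -0.115. Higher members numbered 0, but 1 in limma-voom (Slc1a5) and 0 to 2 with 1 mouse left out. The median log2 fold change of -0.03 was 0.0949 in limma-voom and -0.12 to 0.12 with 1 mouse left out. Causes were not tested. The labels do not say that mice of the same replicate number were paired. Deviations of same-numbered mice correlated at -0.35, -0.14 and -0.01, and those of unlike-numbered mice at -0.12 to 0.29. So few values cannot decide whether a pairing existed. With the replicate block Slc1a4 had a log2 fold change of -1.46 (edgeR unadjusted p of 0.0286) and Slc6a2 one of -3.48 (edgeR unadjusted p of 0.0136).

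Of 382 values of named members over 16 alternatives, 338 kept direction and call, 18 lost the call (all of Slc1a4 or Slc6a2), 6 gained it and 20 changed sign, none of them of a called member. Only Slc1a4 and Slc6a2 were called by edgeR with all mice. Most of the 338 were therefore values of uncalled members that stayed uncalled, which says little about how stable the calls were. Against control 3 alone the sign changed for Slc1a3 (-0.751), Slc3a2 (0.269), Slc6a6 (-0.0290), Slc6a8 (0.0437), Slc43a3 (-0.0900), Slc7a5 (0.226), Slc1a1 (0.273), Slc43a2 (0.435) and Slc7a4 (0.0800). With 1 mouse left out it changed for Slc1a3 (without control 1 or control 2, range -0.121 to 1.11), Slc7a11 (without control 1 or metformin 3, range -0.248 to 0.250), Slc7a6 (without control 2, range -0.0476 to 0.217), Slc6a6 (without metformin 2, range -0.0257 to 0.293) and Slc7a8 (without metformin 3, range -0.0745 to 0.363). Slc7a11 had -0.0039 with the replicate block, -0.0107 with log2(FPKM + 1) with and without a filter and -0.0577 with log2(FPKM + 0.1). The family median of Slc1, -0.17, was 0.0546 in limma-voom, 0.00789 with the replicate block and 0.202 without a filter. Across all features, 271 were past the thresholds in edgeR, 519 in DESeq2 and 118 with the replicate block. Depth limits what can be said of members under 1 CPM, among them Slc6a2.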
